A study of Homo sapiens with 15 samples.

Results

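Ruxolitinib, a drug that inhibits JAK1 and JAK2, was given to UKE-1 cells already stimulated with the inflammatory cytokine TNF-α, and the response was read by RNA sequencing. The comparison set 3 libraries of cells with TNF-α and ruxolitinib against 3 libraries of cells with TNF-α alone, which were 6 of the 15 libraries of the series. Its genes were all those that passed a filter on low counts by group at a minimum count of 10, which kept 16146 of 58735 genes. UKE-1 is an established human myeloid leukaemia line with an activating mutation in JAK2, and the labels describe the cells as hematopoietic and WT, with no further genetic change. Groups of 3 libraries each also held TNF-α with MCL and ruxolitinib (the combination), TNF-α with MCL, and untreated cells. MCL is taken as micheliolide, the sesquiterpene lactone named in the title of the series. TNF-α was thus present in every group but the untreated one. Cells were harvested for RNA 3 h after treatment. The sources used here do not give the doses, the duration of the TNF-α stimulation or the cultures behind each library, so p-values measure the spread between libraries, which may be technical.

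Cytokine receptors without a kinase of their own signal through the JAK kinases, which phosphorylate STAT transcription factors. STAT2 acts with IRF9 to switch on antiviral genes after type I interferon, and STAT5 serves the growth signals of blood cells, where mutant JAK2 keeps it active. TNF-α itself signals through NF-κB and not through a JAK-coupled receptor, although it can make cells secrete interferons and other JAK-dependent cytokines.

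The total count was 16552431, 16366774 and 17144561 in the ruxolitinib libraries, against 15593224, 17026004 and 16528431 with TNF-α alone. Mitochondrial genes took 5.44% to 5.53% of the counts with ruxolitinib, against 4.94% to 5.21% with TNF-α alone, and the part of this gap in the results was not tested. Of 12 markers of blood cell identity, 11 passed the filter, and their summed level was 3100 to 3190 CPM (counts scaled to a common library size) with ruxolitinib, against 3160 to 3180 CPM with TNF-α alone. Of 14 markers of other cell types, 8 passed, and their summed level was 467 to 506 CPM with ruxolitinib, against 526 to 539 CPM with TNF-α alone, and the part of this difference in the results was not tested. The B cell marker MS4A1 and the epithelial marker EPCAM were at 0 in all 6 libraries, and the fibroblast markers COL1A1, COL1A2, COL3A1 and DCN had at most 4 counts in any library. Other markers of this list were expressed. The endothelial marker CDH5 had a mean of 181 CPM with ruxolitinib and 206 CPM with TNF-α alone. The epithelial marker KRT18 had 69.5 and 80.5 CPM, and the T cell marker CD3D 10.6 and 13.6 CPM, in the same order. The erythroid globin genes HBA1, HBA2, HBB, HBG1 and HBG2 were also too low to test. In bulk RNA, fewer cells of a type and less RNA per cell cannot be told apart.

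The promoters of genes that carried the response are shown first, because STAT, MYC, FOXO and NF-κB factors are known to bind short motifs in them. Promoters of 300 bases (250 before the start, 50 from it on) were taken from RefSeq on GRCh38.p14, where 10957 of the 16146 tested genes (67.9%) had one. The motifs searched, on both strands, were the interferon-stimulated response element (ISRE) as GAAANNGAA, the STAT site (GAS) as TTCNNNGAA, the MYC E-box as CACGTG, the forkhead site of FOXO factors as GTAAACA and the κB site as GGGNNTTCC. In 11 promoters an ISRE match and a GAS match shared bases. The ISRE letters are in capitals in 4 genes of the interferon response: IFIT5 (chr10:89414318-89414617, plus strand), with matches beginning at bases -44, -18 and -3 from the start, IFIT1 (chr10:89392373-89392672, plus strand) at -115 and -102, IFIT3 (chr10:89327747-89328046, plus strand) at -155 and -121, and RTP4 (chr3:187368135-187368434, plus strand) at -42, -36 and -18, of which the matches at -42 and -36 overlap.
IFIT5: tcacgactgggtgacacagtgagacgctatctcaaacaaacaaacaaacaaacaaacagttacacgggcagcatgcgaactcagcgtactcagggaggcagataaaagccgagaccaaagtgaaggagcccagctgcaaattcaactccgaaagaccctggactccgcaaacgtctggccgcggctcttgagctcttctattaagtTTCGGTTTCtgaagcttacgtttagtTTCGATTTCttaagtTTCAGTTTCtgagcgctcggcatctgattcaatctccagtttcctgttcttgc
IFIT1: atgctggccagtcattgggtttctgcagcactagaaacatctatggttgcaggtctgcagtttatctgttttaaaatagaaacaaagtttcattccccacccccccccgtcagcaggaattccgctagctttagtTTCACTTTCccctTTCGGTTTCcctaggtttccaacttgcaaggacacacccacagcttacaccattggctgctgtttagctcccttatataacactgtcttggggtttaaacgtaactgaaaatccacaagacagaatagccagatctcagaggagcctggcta
IFIT3: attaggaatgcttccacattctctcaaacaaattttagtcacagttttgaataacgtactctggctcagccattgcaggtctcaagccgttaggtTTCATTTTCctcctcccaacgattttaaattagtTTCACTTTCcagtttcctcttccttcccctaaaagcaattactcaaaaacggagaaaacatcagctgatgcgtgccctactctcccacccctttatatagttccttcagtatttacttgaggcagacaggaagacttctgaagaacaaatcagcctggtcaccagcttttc
RTP4: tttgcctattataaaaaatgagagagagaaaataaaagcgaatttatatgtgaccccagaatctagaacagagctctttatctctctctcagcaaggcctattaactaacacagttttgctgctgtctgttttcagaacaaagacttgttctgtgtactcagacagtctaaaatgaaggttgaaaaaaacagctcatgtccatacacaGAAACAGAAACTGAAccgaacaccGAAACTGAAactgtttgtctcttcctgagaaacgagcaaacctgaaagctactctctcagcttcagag

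The GAS letters are in capitals in a feedback inhibitor and a transcription factor of JAK signalling, and in a cytokine gene. These are CISH (chr3:50611725-50612024, minus strand), with 4 matches at -241, -230, -129 and -112, IRF9 (chr14:24161015-24161314, plus strand) with 1 match at -63, and LTA (chr6:31571849-31572148, plus strand) with 2 matches at -151 and -12. WDR43 (chr2:28894417-28894716, plus strand), a ribosome assembly factor, is shown for its E-box at base 4 after the start.
CISH: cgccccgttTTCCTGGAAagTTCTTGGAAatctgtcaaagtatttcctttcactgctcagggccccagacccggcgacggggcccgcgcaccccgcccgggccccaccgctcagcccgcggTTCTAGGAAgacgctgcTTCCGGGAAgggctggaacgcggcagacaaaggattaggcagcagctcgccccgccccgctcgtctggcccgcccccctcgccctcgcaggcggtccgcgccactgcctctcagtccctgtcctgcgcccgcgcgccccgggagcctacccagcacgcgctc
IRF9: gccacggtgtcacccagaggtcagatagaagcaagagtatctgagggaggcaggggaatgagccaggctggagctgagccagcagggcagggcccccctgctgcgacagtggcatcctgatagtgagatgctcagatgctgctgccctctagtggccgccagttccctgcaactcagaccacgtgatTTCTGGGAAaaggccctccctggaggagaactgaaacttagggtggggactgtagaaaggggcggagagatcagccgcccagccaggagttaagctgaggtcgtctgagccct
LTA: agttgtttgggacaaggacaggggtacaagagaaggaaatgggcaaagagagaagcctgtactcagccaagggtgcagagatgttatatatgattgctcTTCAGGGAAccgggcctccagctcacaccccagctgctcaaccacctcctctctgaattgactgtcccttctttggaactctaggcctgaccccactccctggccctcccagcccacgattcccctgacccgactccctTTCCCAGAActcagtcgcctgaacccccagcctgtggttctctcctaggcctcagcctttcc
WDR43: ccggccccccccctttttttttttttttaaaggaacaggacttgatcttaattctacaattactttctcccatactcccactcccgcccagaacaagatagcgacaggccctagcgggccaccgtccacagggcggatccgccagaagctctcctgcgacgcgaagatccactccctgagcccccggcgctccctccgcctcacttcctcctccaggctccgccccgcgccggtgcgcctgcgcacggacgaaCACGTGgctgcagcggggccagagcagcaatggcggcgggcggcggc

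An ISRE match stood in 29 of the 46 antiviral genes with a promoter (63%), and 16 of them had at least 2, while 6.74% of the promoters of all tested genes had one. E-boxes stood in 12 of 42 ribosome biogenesis promoters (28.6%), against 10.1% of all. Forkhead matches stood in 4 of 27 FOXO-linked promoters (14.8%), against 2.41% of all, and κB matches in 5 of 21 promoters of NF-κB subunits and brakes (23.8%), against 8.24% of all. Other motifs were frequent in the same lists: ISRE matches stood in 4 of the 27 FOXO-linked promoters (14.8%) and 4 of the 21 NF-κB promoters (19%), and E-boxes in 5 of the 27 FOXO-linked promoters (18.5%). Among the 314 genes that were lower with ruxolitinib by at least 1.5-fold, 201 had a promoter, of which 16.4% held an ISRE, 10.9% a GAS match and 12.9% an E-box. Among the 81 genes that were higher by at least 1.5-fold, 54 had a promoter, of which 1.85% held an ISRE, 1.85% a GAS match and 18.5% an E-box. Forkhead matches stood in 7 of the 201 promoters of lower genes (3.48%) and 1 of the 54 of higher genes (1.85%). For κB matches the shares were 8.46% of the lower and 9.26% of the higher genes. A GAS match stood in 6.37% of all promoters. A match describes the letters of the window and shows neither binding nor a cause.

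The effect of ruxolitinib was mostly a loss of expression: antiviral interferon-stimulated genes, genes that limit ERK signalling, D-type cyclins and ribosome assembly genes fell, while genes linked to FOXO factors and pro-apoptotic members of the BCL2 family were among those that rose. Over all 16146 genes, 832 were higher with ruxolitinib than with TNF-α alone (5.15%) and 1706 were lower (10.6%), at an adjusted p under 0.05 in edgeR's quasi-likelihood test with Benjamini-Hochberg adjustment, which gave every adjusted p here unless DESeq2 is named. Scaling by library totals instead of TMM changed the split to 1181 higher and 1418 lower. The median log2 fold change of all tested genes was -0.01, and that change of scaling moved it by 0.02, to just above 0. Most changes were small: the median size on the log2 scale was 0.23 for the genes that rose and 0.29 for the genes that fell. At least 2-fold changes numbered 33 upward (0.204%) and 104 downward (0.644%), against 4 and 60 with DESeq2. The 3 libraries of each group did not overlap in 4802 genes (29.7%). The spread between libraries was low, with a biological coefficient of variation of 0.0404. Genes that fell had a median level of 62.5 CPM with TNF-α alone, genes that rose 44.4 CPM and genes that were not called 12.1 CPM, so called genes lay at higher levels. Protein-coding genes were called more often (6.31% higher, 12.8% lower of 12455) than long intergenic non-coding RNAs (1.77% higher, 3.4% lower of 735) and antisense RNAs (0.812% higher, 3.25% lower of 1109).

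**Figure D1:**
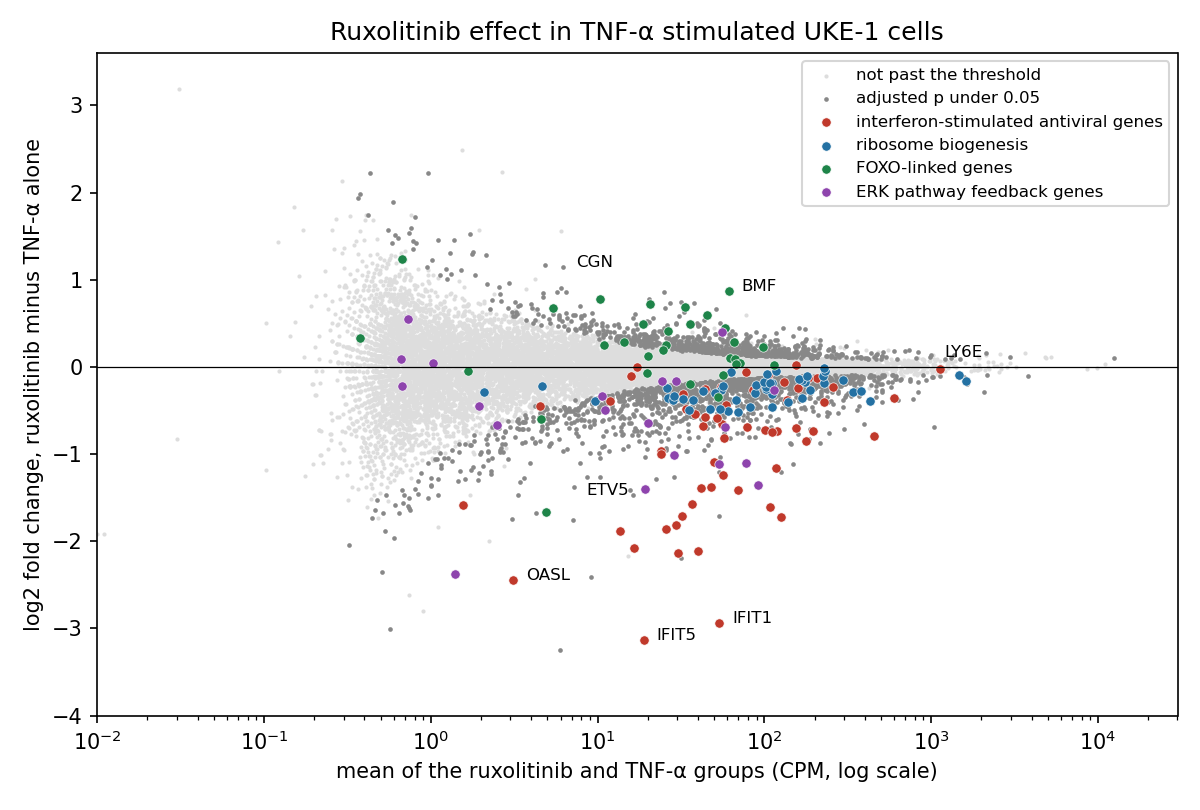
Mean level over the 2 groups (CPM, log axis) against the log2 fold change of ruxolitinib over TNF-α alone for each tested gene, with genes past an adjusted p of 0.05 in dark grey and members of 4 gene lists in colour. The antiviral genes spread downward, to -3.13 at IFIT5, while 24 of the 31 FOXO-linked genes, such as BMF (0.87), lie above 0.

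Among the kinases and STAT factors, STAT2 and IRF9 fell and few of the others passed the test. Of 10 genes of this list tested, 2 fell (20%, against 10.6% of all genes), 1 rose (10%, against 5.15%) and 7 were not called. IRF9, the DNA-binding partner of STAT2, had 4.67, 5.04 and 5.44 CPM with ruxolitinib, against 12.03, 12.55 and 11.8 CPM with TNF-α alone and 6.30, 5.05 and 7.21 CPM in untreated cells (log2 fold change -1.26 ± 0.14, SE, edgeR adjusted p = 3.05e-11). IRF9 overlaps AL136295.5 on the same strand. STAT2 fell by 0.76 on the log2 scale. STAT3, STAT5A and STAT5B had log2 fold changes of -0.09, -0.02 and -0.11 that did not pass the test. JAK1 (0.09), JAK3 (-0.01) and TYK2 (0.08) did not pass either, although JAK1 did under 5 of 12 alternatives, among them library totals (0.11, edgeR adjusted p = 0.00895) and the fit without ruxolitinib replicate 2 (0.13, edgeR adjusted p = 0.0113), where TYK2 passed too (0.13, edgeR adjusted p = 0.0147). JAK2, the mutated kinase of these cells, had 48.7, 45.0 and 47.4 CPM with ruxolitinib, against 40.4, 43.9 and 38.8 CPM with TNF-α alone (log2 fold change 0.20 ± 0.06, SE, edgeR adjusted p = 0.0224). JAK2 did not pass when a library was left out in 4 cases: TNF-α replicate 1 (edgeR adjusted p = 0.0733), TNF-α replicate 3 (0.139), ruxolitinib replicate 1 (0.104) and ruxolitinib replicate 3 (0.0501).

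The inhibitors that JAK signalling induces against itself moved unevenly. CISH, a STAT5 target whose protein blocks STAT5 docking, had 13.7, 13.3 and 14.4 CPM with ruxolitinib, against 23.99, 20.8 and 23.8 CPM with TNF-α alone (log2 fold change -0.73 ± 0.10, SE, edgeR adjusted p = 4.75e-08). Untreated cells had 31.2, 29.4 and 29.8 CPM, so TNF-α alone was already under the untreated level and the drug group lower still. SOCS3, the brake on IL-6 family receptors, stood at 1.76, 2.49 and 2.57 CPM with ruxolitinib, against 3.22, 3.54 and 4.29 CPM with TNF-α alone (-0.69 ± 0.24, SE, edgeR adjusted p = 0.0388). At these few counts its call was lost in 4 of the fits that left out 1 library, with adjusted p = 0.0719 without TNF-α replicate 2, 0.19 without TNF-α replicate 3, 0.199 without ruxolitinib replicate 1 and 0.059 without ruxolitinib replicate 2. SOCS1 (0.00) and SOCS2 (0.02) did not pass the test. Of 8 SOCS and CISH genes, 2 fell (25%, against 10.6% of all genes) and 6 were not called, with 1 fall in DESeq2. USP18, which holds back the interferon receptor, had 17.4, 15.8 and 17.7 CPM with ruxolitinib, against 45.8, 36.3 and 40.2 CPM with TNF-α alone (-1.26 ± 0.08, SE). SH2B3, the adaptor LNK that restrains JAK2 in blood cells, had 184, 174 and 185 CPM with ruxolitinib, against 296, 308 and 314 CPM with TNF-α alone (-0.76 ± 0.04, SE). In the list of 13 other brakes, these 2 fell (15.4%, against 10.6% of all genes). PIAS3 (0.30) and PIAS4 (0.20), inhibitors of STAT activity, rose (15.4%, against 5.15% of all genes). PIAS4 was chosen after its values were seen, and 1 of the 2 rises was lost without TNF-α replicate 2. Of 27 cytokine receptors tested, 3 rose (11.1%), among them IL6R (0.36) and KIT (0.41). A further 2 fell (7.41%, under the 10.6% of all genes), among them CSF1R (-0.25), the receptor of macrophage colony-stimulating factor. Leaving out any of the 6 libraries took the 2 falls to 1.

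**Figure D2:**
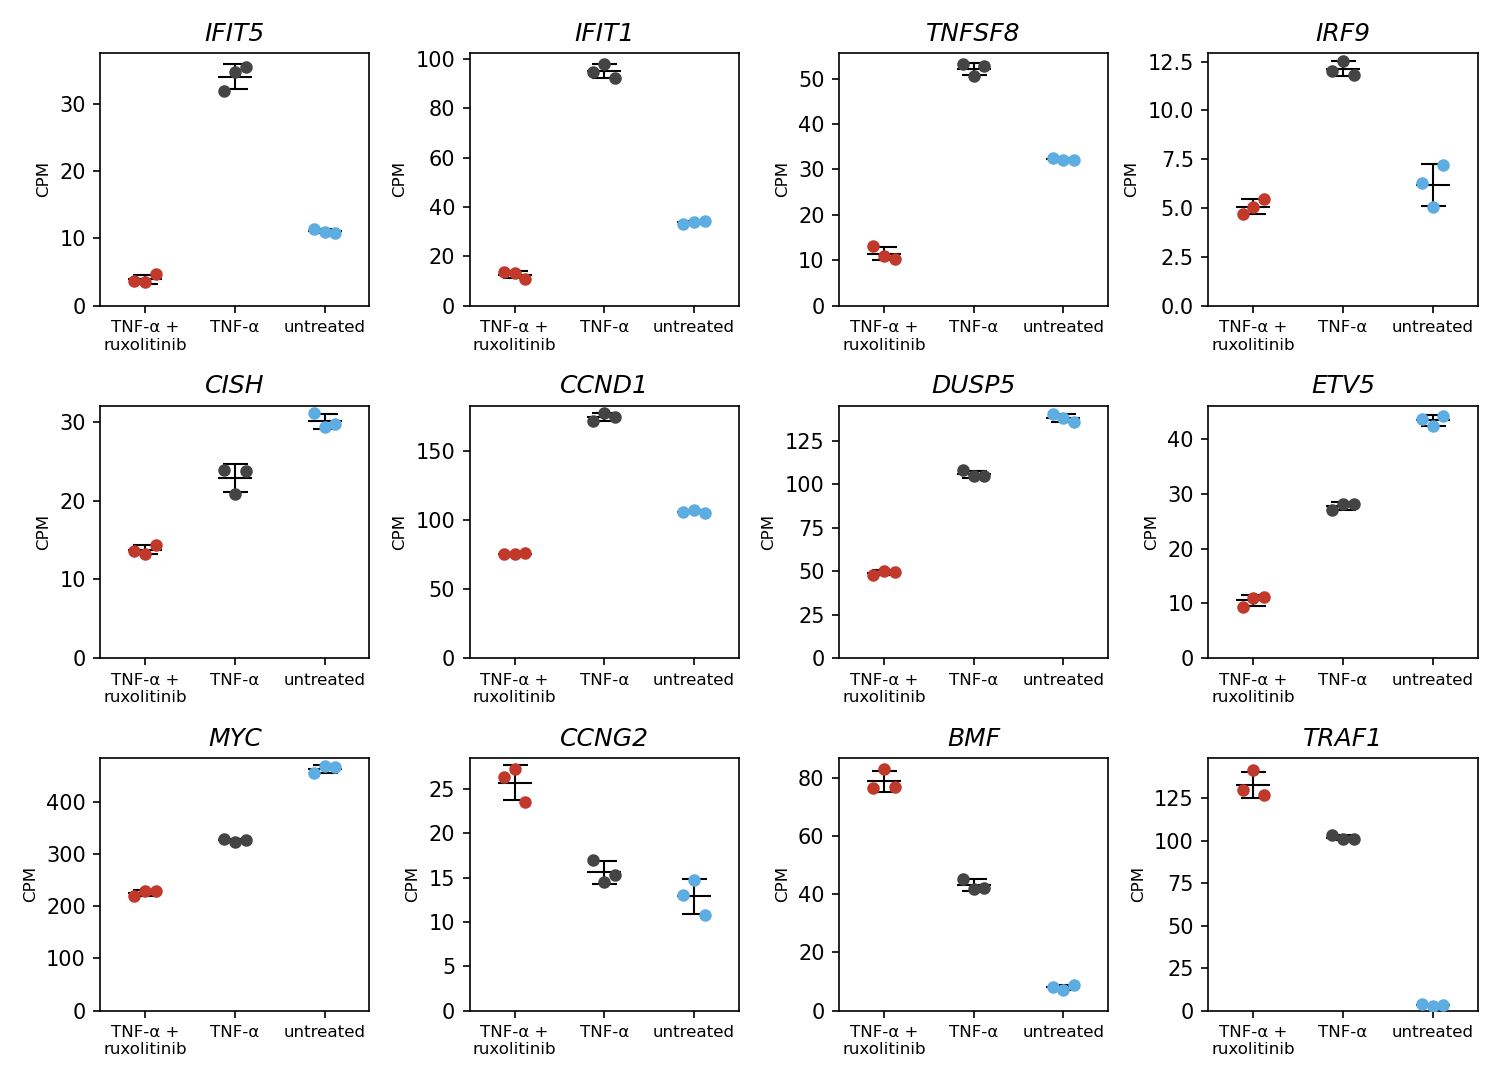
Level in each library (points, CPM, axis from 0) of 12 genes, with the mean and SD of 3 libraries as bars, for ruxolitinib with TNF-α, TNF-α alone and untreated cells from left to right. Ruxolitinib libraries lie under those of TNF-α alone for IFIT1 (10.8 to 13.5 against 92.5 to 98.1 CPM) and over them for BMF (76.7 to 83.1 against 41.8 to 45.4 CPM).

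The antiviral genes fell as a group. Of 58 interferon-stimulated antiviral genes tested, 51 fell, 21 of them by at least 2-fold, and 0 rose in edgeR's test, at an unadjusted p under 0.05 or with DESeq2, and the median log2 fold change was -0.71 where that of all tested genes was -0.01. Their summed level was 5200 to 5310 CPM with ruxolitinib, against 7480 to 7570 CPM with TNF-α alone. IFIT5, a binder of foreign RNA with the 3 ISRE matches printed above, had 3.58, 3.42 and 4.62 CPM with ruxolitinib, against 31.9, 34.7 and 35.5 CPM with TNF-α alone and 11.4, 10.9 and 10.8 CPM in untreated cells. Its log2 fold change was -3.13 ± 0.12 (SE, edgeR adjusted p = 3.43e-31). IFIT1, which binds viral RNA without the host cap mark, had 13.5, 13.1 and 10.8 CPM with ruxolitinib, against 94.9, 98.1 and 92.5 CPM with TNF-α alone and 32.9, 33.8 and 34.4 CPM in untreated cells (-2.94 ± 0.07, SE). Both lay below the untreated libraries once the drug was added. IFIT3, the partner that steadies IFIT1, had 14.99, 13.6 and 16.3 CPM with ruxolitinib, against 64.8, 63.7 and 66.3 CPM with TNF-α alone (-2.11 ± 0.07, SE). IFIT2 stood at 11.7, 9.78 and 11.8 CPM with ruxolitinib, against 38.6, 41.2 and 40.6 CPM with TNF-α alone (-1.85 ± 0.10, SE). LIPA, on the opposite strand, overlaps IFIT1, IFIT2 and IFIT3, and the copies of the family are similar in sequence, so reads may be split between them.

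Enzymes and sensors of the antiviral state followed the same direction to differing depth. OAS2, which makes the signal for RNase L, had 55.0, 53.5 and 52.4 CPM with ruxolitinib, against 161, 165 and 162 CPM with TNF-α alone (-1.60 ± 0.05, SE, edgeR adjusted p = 1.56e-37), and its relative OASL fell by 2.44 on the log2 scale. HELZ2, a helicase and co-activator, had 61.5, 57.4 and 56.8 CPM with ruxolitinib, against 198, 190 and 192 CPM with TNF-α alone (-1.72 ± 0.05, SE, edgeR adjusted p = 3.26e-39). MX2 (-1.88), a nuclear pore restriction factor, XAF1 (-2.07), a pro-apoptotic interferon gene, IFI44L (-2.13) and SAMD9L (-1.82), a growth suppressor of blood cells, fell as well. Further members were picked after their values were seen. The RNA sensor DDX58, or RIG-I, had 33.1, 34.2 and 34.0 CPM with ruxolitinib, against 79.8, 83.8 and 75.7 CPM with TNF-α alone (-1.24 ± 0.06, SE), and the sensor IFIH1, or MDA5, 58.3, 59.8 and 63.7 CPM with ruxolitinib, against 97.0, 104 and 93.0 CPM with TNF-α alone (-0.69 ± 0.06, SE). Both stayed over the untreated level, at 21.4, 20.3 and 21.8 CPM for DDX58 and 35.7, 35.8 and 40.1 CPM for IFIH1. RTP4, whose promoter is printed above, had 0.546, 1.37 and 0.409 CPM with ruxolitinib, against 3.15, 1.86 and 1.99 CPM with TNF-α alone (-1.59 ± 0.37, SE, edgeR adjusted p = 9.61e-04). LY6E, at 1111, 1182 and 1082 CPM with ruxolitinib and 1123, 1146 and 1176 CPM with TNF-α alone, did not pass the test (-0.03). MX1 (-0.45, edgeR adjusted p = 0.0771) and IFITM2 (0.03) did not pass it either, and IFITM2 has near copies in the genome. MX1 passed without ruxolitinib replicate 1 (-0.58, edgeR adjusted p = 0.0462). Set against untreated cells, 30 of the 58 were lower with ruxolitinib and 4 were higher, where 19.0% of all genes were lower and 17.8% higher.

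The list of IRF factors, GBP proteins and chemokines such as CXCL10 had a smaller median loss than the antiviral list, and its members mostly stayed over the untreated level. Of 17 tested, 9 fell and 0 rose in edgeR's test, at an unadjusted p under 0.05 or with DESeq2, and the median log2 fold change was -0.37. With ruxolitinib, 13 of the 17 were higher than in untreated cells, where 17.8% of all genes were higher. IRF7, the amplifier of interferon production, had 20.6, 26.7 and 22.9 CPM with ruxolitinib, against 44.2, 47.3 and 45.3 CPM with TNF-α alone and 28.3, 24.7 and 25.8 CPM in untreated cells (-0.96 ± 0.07, SE). CXCL10, a chemokine for T cells, had 165, 182 and 172 CPM with ruxolitinib, against 222, 230 and 232 CPM with TNF-α alone and only 3.99, 4.44 and 5.30 CPM in untreated cells (-0.40 ± 0.04, SE, edgeR adjusted p = 1.68e-12). The groups did not overlap, and the level with ruxolitinib remained closer to TNF-α alone than to untreated cells. APOL6 fell by 0.82 on the log2 scale. CXCL11 (-0.45), IRF1 (-0.37), GBP5 (-0.59) and GBP1 (-1.31), named after their values were seen, fell too, the last from few counts. Antigen presentation genes gave fewer calls: of 26 genes tested, 5 fell (19.2%, against 10.6% of all genes) and 3 rose (11.5%, against 5.15%), with a median of 0.02. NLRC5 (-0.56), the activator of MHC class I genes, and the peptide transporter TAP1 (-0.40) fell, whereas CIITA, the activator of class II genes, rose to 188, 186 and 191 CPM with ruxolitinib, against 160, 158 and 160 CPM with TNF-α alone (0.24 ± 0.04, SE). TAP1 overlaps PSMB9 on the opposite strand.

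Growth and survival genes tied to STAT5 fell in part. Of 25 tested, 12 fell (48%, against 10.6% of all genes) and 2 rose (8%, against 5.15%), with a median of -0.19. The count that rose was 4 with library totals or with the compared groups fitted alone. CCND1, the G1 cyclin D1, had 75.7, 75.5 and 76.1 CPM with ruxolitinib, against 172, 178 and 175 CPM with TNF-α alone and 106, 108 and 105 CPM in untreated cells (-1.21 ± 0.04, SE, edgeR adjusted p = 3.60e-33). LTA, the cytokine lymphotoxin-α, whose promoter is printed above, had 8.44, 9.78 and 7.90 CPM with ruxolitinib, against 24.3, 25.2 and 22.9 CPM with TNF-α alone and 2.56, 3.78 and 3.99 CPM in untreated cells (-1.47 ± 0.12, SE). CCND1 thus lay under its untreated level with the drug and LTA over it. GFI1B, a transcriptional repressor that acts in the erythroid and megakaryocyte lineages, fell by 0.82, CCND3 by 0.38 and CCND2 by 0.38 on the log2 scale. PIM1 (-0.39) and PIM2 (-0.31), survival kinases, fell, and PIM3 (-0.07) did not pass the test. BCL6, a repressor that STAT5 opposes, was at 2.73, 1.12 and 1.17 CPM with ruxolitinib and 1.18, 1.14 and 2.17 CPM with TNF-α alone, which overlap. ID1 (-0.53), chosen after its values were seen, fell. GFI1B overlaps TSC1 and CCND1 overlaps LTO1, both on the opposite strand.

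Members of the BCL2 family moved in both directions. The guardians of survival BCL2L1, or BCL-XL, at 66.0, 67.0 and 61.8 CPM with ruxolitinib, against 96.1, 96.6 and 104 CPM with TNF-α alone (-0.61 ± 0.05, SE), BCL2 (-0.53) and MCL1 (-0.19) fell. The killer proteins BMF, BBC3 and BCL2L11 rose. BMF had 76.7, 83.1 and 76.8 CPM with ruxolitinib, against 45.4, 41.8 and 42.2 CPM with TNF-α alone and 8.23, 7.0 and 8.75 CPM in untreated cells (0.87 ± 0.06, SE, edgeR adjusted p = 3.12e-18). BBC3, or PUMA, had 41.3, 42.0 and 42.0 CPM with ruxolitinib, against 28.7, 30.3 and 29.9 CPM with TNF-α alone (0.49 ± 0.07, SE), and BCL2L11, or BIM, 29.6, 31.3 and 29.8 CPM with ruxolitinib, against 21.8, 24.8 and 21.7 CPM with TNF-α alone (0.41 ± 0.08, SE). BBC3 and BCL2L11 were named after their values were seen. Of 15 family members tested, these 3 rose (20%, against 5.15% of all genes) and 4 fell (26.7%, against 10.6%). The fourth fall was that of the killer protein BID (-0.26), also named after its values were seen.

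Genes linked to FOXO factors, which growth signalling through AKT keeps out of the nucleus, were the list with the largest share of rises. Of 31 tested, 14 rose (45.2%, against 5.15% of all genes) and 4 fell (12.9%, near the 10.6% of all genes). The median log2 fold change was 0.25, and the 14 include BMF, BBC3 and BCL2L11. ARRDC3, an arrestin-like adaptor, had 40.6, 39.8 and 42.8 CPM with ruxolitinib, against 27.3, 24.9 and 24.5 CPM with TNF-α alone (0.69 ± 0.07, SE, edgeR adjusted p = 4.63e-13). YPEL5 had 54.7, 55.4 and 53.7 CPM with ruxolitinib, against 33.6, 36.1 and 39.0 CPM with TNF-α alone (0.59 ± 0.06, SE). The groups of both genes were separate, with the drug libraries on top. KLHL24 (0.78) rose as well. Named after their values were seen, CCNG2 (0.72), a cyclin of arrested cells, the repressor HBP1 (0.50) and FOXO3 itself (0.44) rose. FOXO3 had 66.3, 65.9 and 67.8 CPM with ruxolitinib, against 48.7, 47.9 and 50.5 CPM with TNF-α alone. TNFSF10, the death ligand TRAIL, which interferon also induces, went the other way, with 2.79, 2.12 and 2.10 CPM with ruxolitinib, against 7.43, 8.23 and 6.58 CPM with TNF-α alone (-1.66 ± 0.23, SE). The count that fell was 2 without TNF-α replicate 1, ruxolitinib replicate 2 or ruxolitinib replicate 3.

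**Figure D3:**
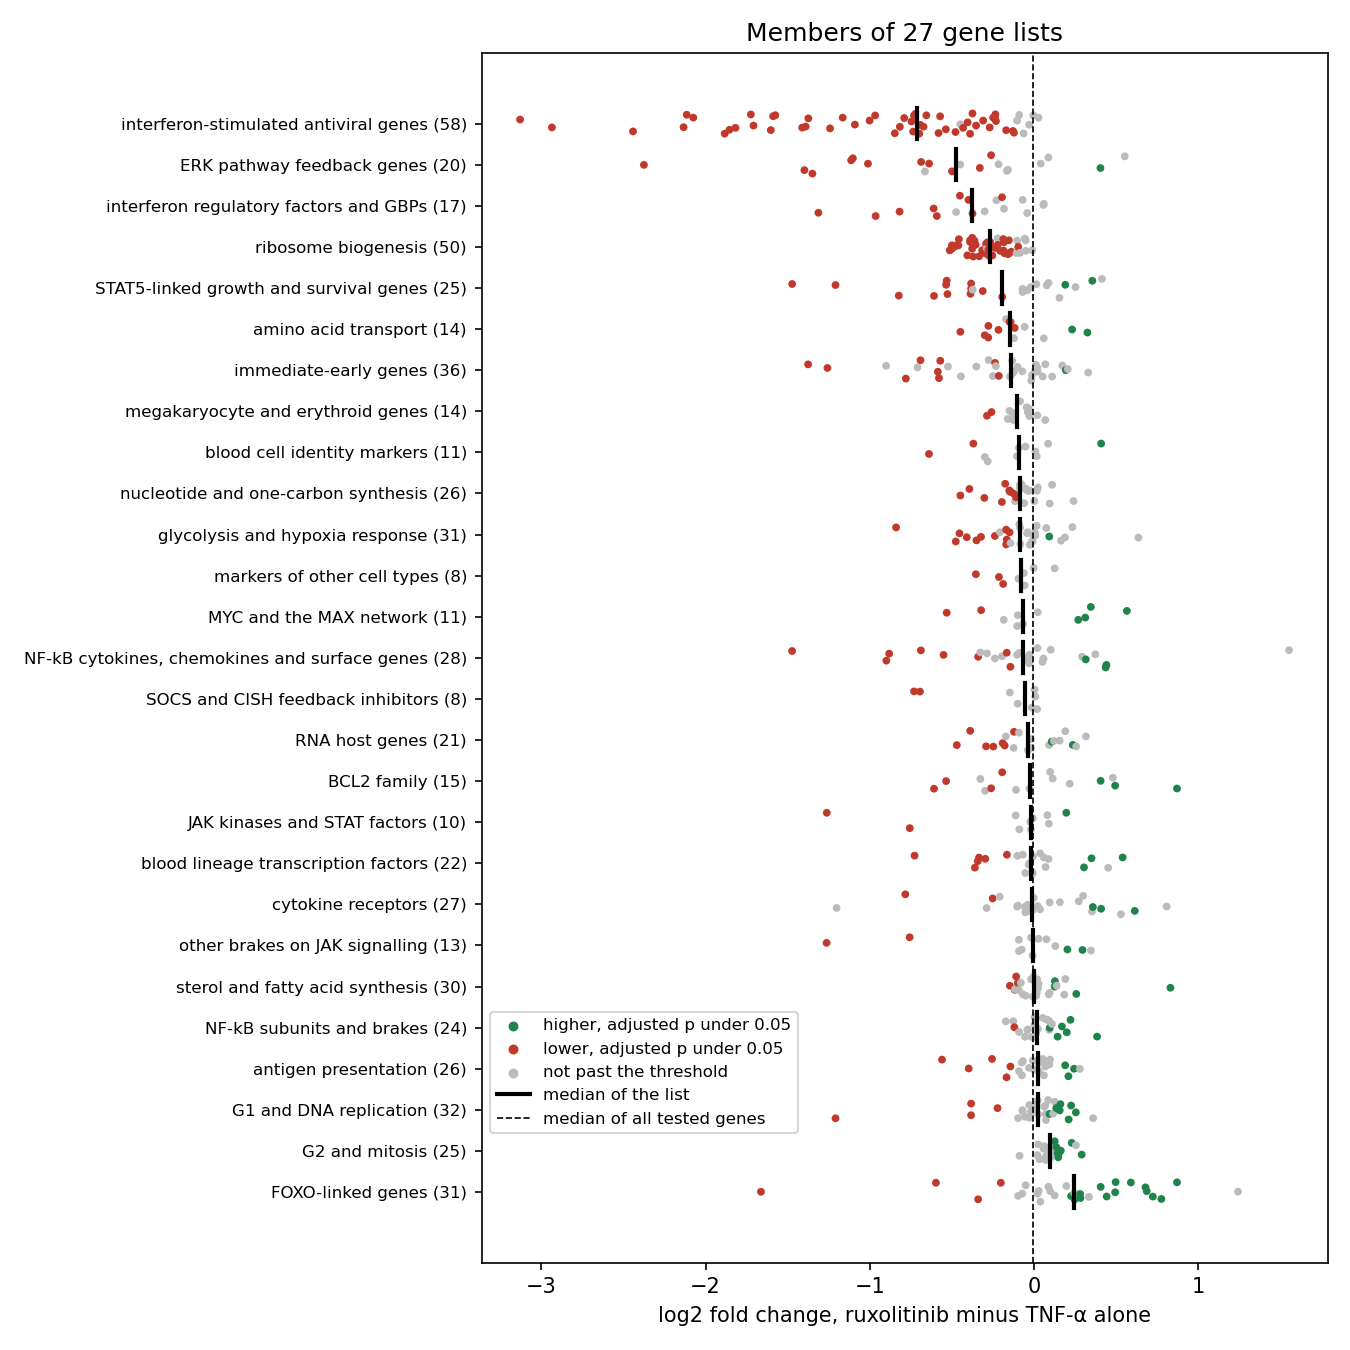
Log2 fold change of ruxolitinib over TNF-α alone for the tested members of each gene list (1 point a gene, green or red where past an adjusted p of 0.05, bar at the list's median), with a dashed line at the median of all tested genes. The antiviral list has its median at -0.71 and the ribosome biogenesis list at -0.27 with every point below 0, while the FOXO-linked list has its median at 0.25.

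MYC and most genes of the machinery that builds ribosomes fell, by up to 0.53 on the log2 scale. MYC had 220, 230 and 229 CPM with ruxolitinib, against 330, 323 and 327 CPM with TNF-α alone and 456, 470 and 468 CPM in untreated cells (-0.53 ± 0.04, SE, edgeR adjusted p = 5.31e-19). Of 11 genes of the MYC and MAX network, 2 fell (18.2%, against 10.6% of all genes), MYC and MLX (-0.32). A further 4 rose (36.4%, against 5.15%), among them MXD4 (0.57), which competes with MYC for MAX. MXI1 (0.31), another such competitor, and MYCN (0.27) rose too and were named after their values were seen. Of 50 ribosome biogenesis genes tested, 41 fell and 0 rose in edgeR's test, at an unadjusted p under 0.05 or with DESeq2. The median was -0.27 and all 50 values were below 0. With library totals 39 fell. WDR43, the gene with the E-box printed above, had 93.0, 93.9 and 92.2 CPM with ruxolitinib, against 125, 129 and 130 CPM with TNF-α alone and 156, 153 and 160 CPM in untreated cells (-0.46 ± 0.04, SE). POLR1B, the second subunit of RNA polymerase I, had 57.7, 57.5 and 57.5 CPM with ruxolitinib, against 80.1, 84.0 and 82.2 CPM with TNF-α alone (-0.51 ± 0.05, SE). The helicase DDX21 fell by 0.39 on the log2 scale. FBL, the methylase of ribosomal RNA, named after its values were seen, had -0.01 and did not pass the test. Set against untreated cells, 45 of the 50 were lower with ruxolitinib, where 19.0% of all genes were lower.

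Nutrient genes leaned the same way. Of 14 amino acid transporters, 8 fell (57.1%, against 10.6% of all genes) and 2 rose (14.3%, against 5.15%), and the 8 became 5 without ruxolitinib replicate 3. SLC7A5, the leucine carrier, had 315, 316 and 302 CPM with ruxolitinib, against 422, 421 and 428 CPM with TNF-α alone (-0.45 ± 0.03, SE, edgeR adjusted p = 4.22e-18), SLC7A1, an arginine carrier, fell by 0.28, and SLC38A2, a glutamine carrier, rose (0.23). Of 31 genes of glycolysis and the hypoxia response, 11 fell (35.5%, against 10.6% of all genes) and 1 rose (3.23%, against 5.15%). That rise was lost without TNF-α replicate 2 or 3 or ruxolitinib replicate 1 or 2. The glucose carrier SLC2A3 had 37.7, 32.1 and 33.0 CPM with ruxolitinib, against 61.7, 59.8 and 62.4 CPM with TNF-α alone (-0.84 ± 0.08, SE), and SLC2A1 (-0.45) and hexokinase HK2 (-0.48) fell too. Of 26 genes of nucleotide and one-carbon synthesis, 9 fell (34.6%, where 10.6% of all genes fell) and 0 rose in edgeR's test. The count that rose was 1 at an unadjusted p under 0.05, 1 with DESeq2 and 1 with library totals. PPAT (-0.45) and DHODH (-0.39), enzymes of purine and pyrimidine synthesis, were among the falls. The 30 sterol and fatty acid genes had a median of 0.00. Of these, 5 were lower (16.7%, against 10.6% of all genes) and 4 higher (13.3%, against 5.15%). The 5 became 1 without TNF-α replicate 3 or ruxolitinib replicate 1. FASN (-0.15) fell and ABCA1 (0.83), the cholesterol exporter, rose from few counts.

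Feedback genes of the ERK pathway fell strongly. Of 20 tested, 11 fell (55%, against 10.6% of all genes) and 1 rose (5%, near the 5.15% of all genes). At least 2-fold were 6 of the falls, and the median log2 fold change of the list was -0.47. Their summed level was 465 to 470 CPM with ruxolitinib, against 724 to 745 CPM with TNF-α alone. DUSP4, a nuclear phosphatase of ERK, had 52.0, 51.2 and 51.7 CPM with ruxolitinib, against 130, 128 and 136 CPM with TNF-α alone and 44.2, 38.9 and 38.9 CPM in untreated cells (-1.35 ± 0.05, SE, edgeR adjusted p = 2.08e-32). DUSP6, the cytoplasmic ERK phosphatase, had 35.6, 31.5 and 34.9 CPM with ruxolitinib, against 75.01, 72.01 and 73.8 CPM with TNF-α alone and 79.4, 77.8 and 78.7 CPM in untreated cells (-1.11 ± 0.06, SE). DUSP5 had 47.8, 50.1 and 49.6 CPM with ruxolitinib, against 108, 104 and 104 CPM with TNF-α alone (-1.10 ± 0.05, SE). DUSP5 and DUSP6 ended well under the untreated level, whereas DUSP4 ended above it. Members named after their values were seen were ETV5 (-1.40), an ETS factor downstream of ERK, with 9.41, 11.0 and 11.2 CPM with ruxolitinib, against 27.02, 28.2 and 28.3 CPM with TNF-α alone, SPRY4 (-2.38) from few counts and SPRED1 (-1.01), both inhibitors of RAS signalling, and DUSP7 (-0.69). DUSP10, a phosphatase of p38 and JNK more than of ERK, was the member that rose (0.41). Of 36 immediate-early genes, 9 fell (25%, against 10.6% of all genes) and 1 rose (2.78%, against 5.15%), with a median of -0.14. The rise was lost without TNF-α replicate 1. FOSL1, an AP-1 factor, had 4.07, 4.05 and 3.98 CPM with ruxolitinib, against 10.1, 9.85 and 11.5 CPM with TNF-α alone (-1.38 ± 0.14, SE), and HBEGF (-1.26) and IER2 (-0.57) fell too.

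Genes of the NF-κB pathway itself, the direct arm of TNF-α signalling, gave small changes, most of the called ones upward. Of 24 NF-κB subunits and brakes, 6 rose (25%, where 5.15% of all genes rose) and 1 fell (4.17%, where 10.6% of all genes fell), with a median of 0.02. With ruxolitinib 23 of the 24 were higher than in untreated cells, where 17.8% of all genes were higher. TRAF1, an adaptor of TNF receptors, had 130, 142 and 126 CPM with ruxolitinib, against 103, 101 and 101 CPM with TNF-α alone and 3.74, 2.94 and 3.10 CPM in untreated cells (0.38 ± 0.05, SE, edgeR adjusted p = 1.19e-08). RELB (0.22), a subunit of the non-canonical pathway, and NFKBIA (0.17), the inhibitor IκBα, rose, while TNFAIP3 (0.09, edgeR adjusted p = 0.0927), the brake A20, did not pass the test but did under 4 of 12 alternatives, among them library totals (0.11, edgeR adjusted p = 0.0269). NFKB1 (-0.04) and BIRC3 (0.00), named after their values were seen, did not pass it. BIRC3 had 159, 153 and 160 CPM with ruxolitinib and 158, 160 and 154 CPM with TNF-α alone, against 7.48, 6.05 and 7.86 CPM in untreated cells. The single fall was lost without TNF-α replicate 2, ruxolitinib replicate 1 or ruxolitinib replicate 3.

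Cytokines and surface genes induced through NF-κB divided. Of 28 tested, 8 fell (28.6%, against 10.6% of all genes) and 3 rose (10.7%, against 5.15%), with a median of -0.06. The falls became 5 with library totals, without TNF-α replicate 3, without ruxolitinib replicate 2 or without ruxolitinib replicate 3. IL1B, the inflammasome cytokine, had 31.6, 32.0 and 32.1 CPM with ruxolitinib, against 61.9, 57.8 and 58.8 CPM with TNF-α alone and 24.7, 24.9 and 23.6 CPM in untreated cells (-0.90 ± 0.06, SE). LTB, the partner of LTA, had 102, 103 and 98.5 CPM with ruxolitinib, against 182, 181 and 198 CPM with TNF-α alone (-0.88 ± 0.05, SE). CD44, the hyaluronan receptor, had 807, 800 and 797 CPM with ruxolitinib, against 1254, 1313 and 1306 CPM with TNF-α alone and 1135, 1096 and 1114 CPM in untreated cells (-0.69 ± 0.03, SE, edgeR adjusted p = 2.34e-28). ICAM1 (0.02), an adhesion molecule, did not pass the test, at 384, 380 and 373 CPM with ruxolitinib and 363, 366 and 391 CPM with TNF-α alone, which overlap. CXCL8 (-0.03), named after its values were seen, did not pass it either. EBI3 (0.32) and VCAM1 (0.44), likewise named, rose: EBI3, a subunit of IL-27, had 200, 205 and 188 CPM with ruxolitinib, against 156, 161 and 160 CPM with TNF-α alone.

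Genes of the cell cycle gave small changes beyond the D-type cyclins, and blood lineage factors moved in both directions. Of 32 genes of G1 and DNA replication, 7 rose (21.9%, against 5.15% of all genes) and 4 fell (12.5%, near the 10.6% of all genes). There were 12 rises under library totals and 4 without TNF-α replicate 2. Of 25 genes of G2 and mitosis, 8 rose (32%, against 5.15% of all genes) and 0 fell in edgeR's test, while 1 fell at an unadjusted p under 0.05 and 0 with DESeq2. There were 13 rises under library totals and 5 without TNF-α replicate 1 or 3. BUB1 (0.15), BUB1B (0.15) and KIF20A (0.16), genes of the spindle checkpoint and cytokinesis, gave the smallest p-values among them. Of 22 blood lineage transcription factors, 6 fell (27.3%, against 10.6% of all genes) and 3 rose (13.6%, against 5.15%). LMO2, the bridge of the erythroid complex, had 12.2, 13.9 and 12.3 CPM with ruxolitinib, against 22.5, 20.7 and 20.4 CPM with TNF-α alone (-0.73 ± 0.09, SE), and TAL1, its partner, fell by 0.34 on the log2 scale. NFE2, a factor of platelet formation, rose to 51.2, 51.5 and 51.7 CPM with ruxolitinib, against 34.6, 36.5 and 35.1 CPM with TNF-α alone, and untreated cells had 65.2, 70.8 and 62.9 CPM (0.54 ± 0.06, SE). MYB (0.35), named after its values were seen, rose. Of 14 megakaryocyte and erythroid genes tested, GP1BA (-0.29), a platelet receptor subunit, and SELP (-0.26), or P-selectin, fell and 0 rose in edgeR's test, at an unadjusted p under 0.05 or with DESeq2. The 2 falls were 14.3% of the list, near the 10.6% of all genes that fell. Among the markers of blood cell identity, ITGAM (-0.64) and CD33 (-0.37) fell and KIT (0.41) rose, and among those of other cell types CDH5 (-0.19), KRT18 (-0.21) and CD3D (-0.35) fell. CD3D did not pass without replicate 2 of TNF-α (edgeR adjusted p = 0.172), TNF-α replicate 3 (0.0795), ruxolitinib replicate 2 (0.0924) or ruxolitinib replicate 3 (0.0915).

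The genes with the largest changes joined these groups only in part. BATF2, an interferon-induced AP-1 factor, had 3.28, 2.68 and 2.75 CPM with ruxolitinib, against 14.7, 16.2 and 15.5 CPM with TNF-α alone (-2.41 ± 0.16, SE). TNFSF8, the ligand of CD30, had 13.1, 10.9 and 10.3 CPM with ruxolitinib, against 53.1, 50.6 and 52.7 CPM with TNF-α alone and 32.4, 32.2 and 32.2 CPM in untreated cells (-2.19 ± 0.08, SE, edgeR adjusted p = 5.67e-32). MMRN2, an extracellular protein of endothelium, had 2.61, 3.24 and 3.86 CPM with ruxolitinib, against 11.0, 9.97 and 11.9 CPM with TNF-α alone (-1.76 ± 0.15, SE). All 3 genes were below the untreated level with the drug. Among coding genes of at least 5 CPM whose groups did not overlap, the largest rise was that of CGN, the junction protein cingulin, at 6.98, 8.78 and 10.1 CPM with ruxolitinib, against 3.68, 4.50 and 3.48 CPM with TNF-α alone and 0, 0.0556 and 0.0595 CPM in untreated cells (1.14 ± 0.25, SE, edgeR adjusted p = 0.00109), a call that DESeq2 did not give (adjusted p = 0.0961). FSTL3, an inhibitor of activin, had 30.3, 36.6 and 29.9 CPM with ruxolitinib, against 17.4, 19.8 and 16.1 CPM with TNF-α alone (0.86 ± 0.10, SE). IKZF2, the factor Helios, had 26.7, 24.2 and 26.1 CPM with ruxolitinib, against 15.97, 15.1 and 14.04 CPM with TNF-α alone (0.77 ± 0.09, SE). The ETS factor SPIB had 6.37, 11.3 and 7.37 CPM with ruxolitinib, against 5.98, 4.08 and 3.73 CPM with TNF-α alone (0.86 ± 0.21, SE), and its change was 0.60 with an adjusted p of 0.073 without ruxolitinib replicate 2. RNF223 (0.90), TENT5B (0.86), NATD1 (0.81), MAP1A (0.74), SP7 (0.74), an osteoblast factor, and VASH2 (0.73) made up the rest of the 12 highest coding genes with BMF and KLHL24.

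Among genes annotated with a type other than protein-coding, AL445490.1 had 1.09, 1.245 and 1.05 CPM with ruxolitinib, against 9.27, 11.8 and 11.2 CPM with TNF-α alone (-3.25 ± 0.21, SE, edgeR adjusted p = 7.80e-20). It overlaps the interferon gene IFI6 on the opposite strand, in a count whose strand use is not given, and IFI6 itself fell by 0.23 on the log2 scale. C8orf31 (-1.27) and SRGAP2D (-0.88), a partial copy of a neuronal gene family, fell too. IGKC encodes the constant region of the immunoglobulin κ chain and falls here only because immunoglobulin genes have an annotated type of their own. It had 6.55, 6.85 and 6.67 CPM with ruxolitinib, against 2.30, 2.82 and 3.79 CPM with TNF-α alone (1.17 ± 0.22, SE). The non-coding AC007383.2 (0.85), U91328.1 (0.60) and DLX6-AS1 (0.59) rose too. AC007383.2 overlaps INO80D and DLX6-AS1 overlaps DLX6, both on the opposite strand. Of 21 RNA host genes of small RNAs and similar transcripts, 7 fell (33.3%, against 10.6% of all genes) and 2 rose (9.52%, against 5.15%). SNHG15 (-0.47), SNHG1 (-0.19) and SNHG3 (-0.18), hosts of small nucleolar RNAs, were among the falls. SNHG3 overlaps RCC1 on the same strand. The 7 falls became 3 without TNF-α replicate 2 or 3, and 4 without ruxolitinib replicate 2, with library totals or with DESeq2. The 2 rises became 1 without TNF-α replicate 1 or 3 or ruxolitinib replicate 1 or 3. MIR222HG, the host of miR-221 and miR-222, had 3.16, 3.55 and 4.45 CPM with ruxolitinib, against 6.18, 6.61 and 7.64 CPM with TNF-α alone (-0.87 ± 0.17, SE). The mature miRNAs were not measured here. Their 3p arms (RefSeq, GRCh38.p14, minus strand, chrX:45746180-45746202 and chrX:45747036-45747056) share the seed, bases 2 to 8, in capitals.
hsa-miR-221-3p: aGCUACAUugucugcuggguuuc
hsa-miR-222-3p: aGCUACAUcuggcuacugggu

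The same drug was also added in the presence of MCL, in 6 libraries outside the groups compared above. They were part of the same fit of all 15 libraries, so the comparisons shared scaling and estimates of spread. Most antiviral genes fell there again, while fewer ERK feedback genes did. The combination against MCL gave 3170 genes higher (19.6%) and 3553 lower (22.0%). Of the 1706 genes that fell without MCL, 1110 fell with it (65.1%, and 31.2% of the 3553) and 139 rose (8.15%). Of the 832 that rose without MCL, 390 rose with it (46.9%, and 12.3% of the 3170) and 148 fell (17.8%). Among the antiviral genes 51 of 58 fell with MCL, with a median of -0.55, and among the ribosome genes 41 of 50. IFIT5 had 2.61, 1.97 and 1.73 CPM in the combination, against 18.5, 23.1 and 20.9 CPM with MCL (-3.31 ± 0.14, SE). DUSP5 had 100.2, 96.7 and 101.1 CPM in the combination and 98.5, 102.5 and 102.5 CPM with MCL, which overlap (-0.03 ± 0.04, SE). BMF, which rose without MCL, fell with it, to 22.1, 23.3 and 20.8 CPM in the combination, against 33.3, 36.9 and 37.6 CPM with MCL (-0.70 ± 0.07, SE). The ERK feedback list had 6 falls and 2 rises with MCL and a median of -0.04. The test of the difference between the effects without and with MCL found 2071 genes with a positive difference (12.8%) and 1962 with a negative one (12.2%), and it called 9 of the 20 ERK feedback genes negative and 3 positive, and 21 of the 58 antiviral genes negative and 4 positive. MX2 (-1.88 without MCL and -0.71 with it), IFIT2 (-1.85 and -0.78) and IFI44L (-2.13 and -1.14) were among the antiviral genes that fell less with MCL. They fell there from a lower level, and ended near the level with ruxolitinib. Mean CPM with TNF-α alone, MCL, ruxolitinib and the combination was 21.5, 8.33, 5.83 and 5.10 for MX2. It was 40.1, 20.2, 11.1 and 11.8 for IFIT2, and 49.2, 23.3, 11.2 and 10.6 for IFI44L. The ERK phosphatase DUSP4 had -1.35 without MCL and -1.28 with it, a difference that did not pass the test (edgeR adjusted p = 0.476). With library totals the split was 1889 positive and 2168 negative, and that of the combination against MCL was 3764 higher and 2976 lower.

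**Figure D4:**
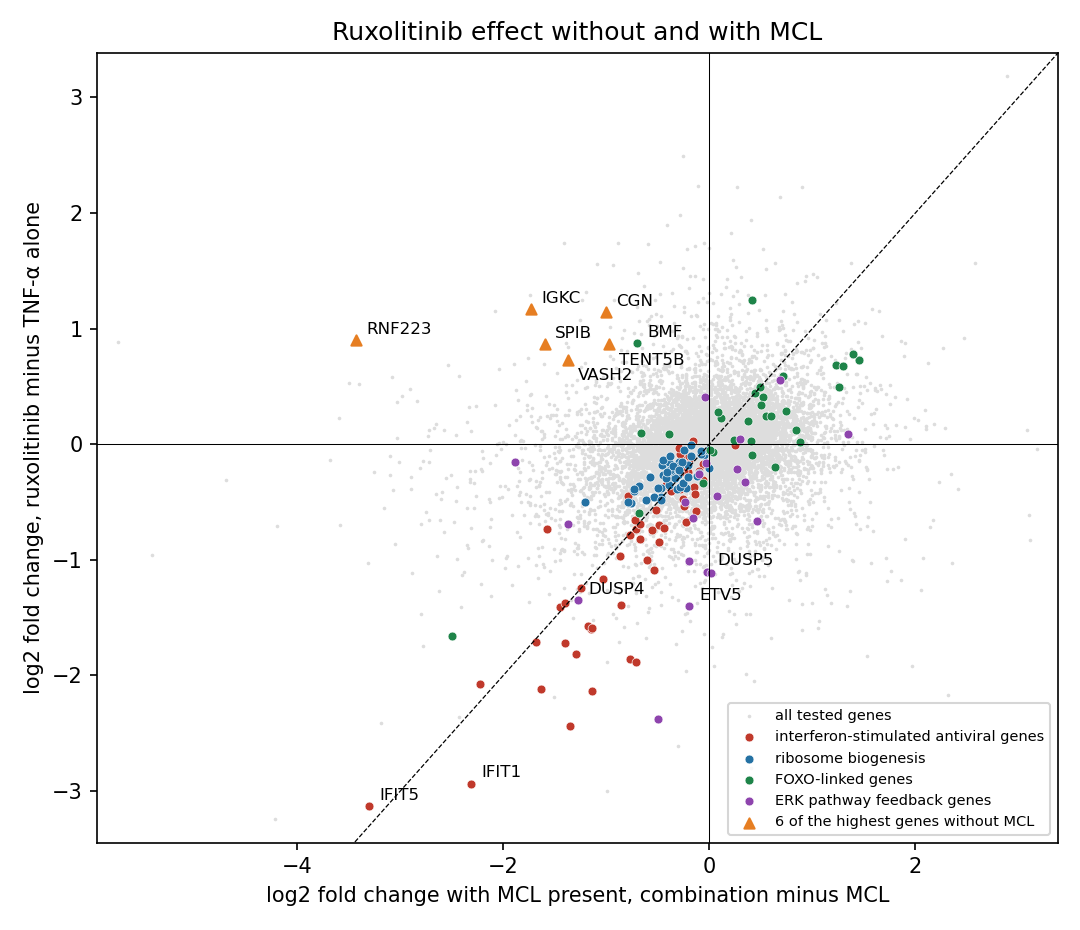
Log2 fold change of ruxolitinib over TNF-α alone (vertical axis) and of the combination over MCL (horizontal axis) for all tested genes, with 4 gene lists in colour and a dashed line of equal effects. IFIT5 lies near the line at -3.13 and -3.31, and DUSP5 off it at -1.10 and -0.03. The triangles mark genes high on the vertical axis and left of 0, such as RNF223 at 0.90 and -3.43, which had few counts in the combination.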

How the data were processed

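The values deposited by the authors were unnormalized counts of reads per gene, for 58735 genes and 15 libraries. Per the submitters' processing notes the tools included HISAT2 (2.0.5), featureCounts (1.5.0-p3) and DESeq2 (1.16.1), with hg38 and mm10 as builds. All 58735 genes had the start and end of GENCODE 29. The sources used here give neither strand use nor the handling of reads with several matches, and 196 entries of the gene lists overlap another tested gene.

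The filter was filterByExpr of edgeR by group (minimum count 10), which kept 16146 genes. The model was fitted with edgeR 4.0.16 in R 4.3.3 to all 15 libraries, with TMM scaling and 1 coefficient for each group. This left 10 residual degrees of freedom for robust quasi-likelihood tests, whose p-values were adjusted by Benjamini-Hochberg across the 16146 genes and called under 0.05. Levels are CPM with TMM factors, and fold changes are log2 of ruxolitinib over TNF-α alone. DESeq2 1.42.0 was an alternative, and its missing adjusted p-values, 3445 in this comparison, were kept as missing. Depth was 15476399 to 18035604 counts per library, so the precision of a gene depends on its count. A chi-square test found every pair of libraries of these groups to differ beyond sampling noise, and none was treated as a copy.

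The comparison and the gene lists, of 671 gene names with 614 tested, were chosen with earlier results of these data known, so counts over a list are descriptions. They are to be set beside the 5.15% of all tested genes that rose and the 10.6% that fell. Counts against untreated cells are to be set beside the 17.8% of all tested genes that were higher and the 19.0% that were lower. The genes named were the 12 highest and 12 lowest coding genes and the 4 highest and 4 lowest others with non-overlapping groups and at least 5 CPM, up to 3 called members of each list by p, and a fixed panel of JAK, STAT and target genes. Other genes are said to be named after their values were seen. Y-linked genes were not considered. 1 gene of that panel was left out of it and of its list and is not reported here.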

Additional observations from a re-analysis of the deposited data

Results flagged for a closer look

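For 62 of the genes reported, the ruxolitinib effects without and with MCL were compared by an interaction term in the same edgeR fit. Of these, 42 differed at an adjusted p under 0.05, the largest being 0.0398. Over all tested genes, 12.8% had a positive difference and 12.2% a negative one. The 62 include genes picked for a large change without MCL, which enters the difference, so the choice itself favours a high count. Values are the log2 effect without MCL (ruxolitinib against TNF-α alone) minus the log2 effect with MCL (combination against MCL). Their causes were not tested.

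The difference was negative in 21 genes. Among interferon genes it was -1.18 for MX2, -1.08 for IFIT2, -0.996 for IFI44L, -0.62 for IFIT1, -0.58 for STAT2, -0.52 for SAMD9L and -0.48 for IFIT3, all of which fell in both settings and fell further without MCL. Each had a higher mean level with TNF-α alone than with MCL. Among ERK-linked genes it was -1.26 for FOSL1, -1.20 for ETV5, -1.12 for DUSP6 and -1.08 for DUSP5, of which FOSL1, DUSP5 and DUSP6 did not pass the test with MCL. It was -0.73 for CCNG2, -0.62 for KLHL24 and -0.55 for ARRDC3, FOXO-linked genes that rose in both settings and rose further with MCL. BCL6 had -1.95, with a rise of 2.11 in the combination against MCL and no call without MCL. PIM1 had -0.89, with a fall without MCL and a rise of 0.50 with it. The remaining values were -1.78 for MMRN2, -1.25 for SRGAP2D, -0.80 for MIR222HG, -0.68 for TNFSF8 and -0.20 for MCL1.

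The difference was positive in 21 genes. RNF223 (4.33), IGKC (2.90), SPIB (2.46), VASH2 (2.11), TENT5B (1.84), SP7 (1.67), BMF (1.57) and MAP1A (1.29) rose without MCL and fell with it. The largest of these rest on few counts. In the combination RNF223 had 0.058, 0.109 and 0.167 CPM, IGKC 0.348, 0.218 and 0.390 CPM, and SPIB 0.464, 0.546 and 0.390 CPM. CGN (2.15) rose without MCL and was not called with it, also from few counts in the combination (0.869, 0.055 and 0.167 CPM). NF-κB genes had 2.24 for TRAF1, 2.03 for ICAM1, 0.66 for NFKBIA and 0.57 for TNFAIP3, and each of these 4 fell with MCL. CCND1 (1.00), PIM2 (0.74), MYC (0.71) and CISH (0.40) fell in both settings and further with MCL. STAT5A (0.84), PIM3 (0.69), TYK2 (0.33) and STAT5B (0.28) fell with MCL and were not called without it.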

How the results depend on the processing

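The counts of called genes in each comparison kept within 1.5 times their values under the alternatives tried, but DESeq2 lowered the counts of at least 2-fold changes by more. Genes higher and lower with ruxolitinib than with TNF-α alone numbered 1050 and 1530 with DESeq2 size factors, 1181 and 1418 with library totals, 897 and 1384 without the filter, 1047 and 1542 with the compared groups alone, and 918 and 1408 with DESeq2. Of the changes of at least 2-fold, DESeq2 called 4 upward and 60 downward, against 33 and 104 in edgeR. Leaving out 1 library gave 623 to 853 higher and 1280 to 1447 lower, 2719 to 2899 and 3147 to 3324 for the combination against MCL, 1825 to 2187 positive and 1592 to 1940 negative differences by MCL, and 2550 to 2686 higher and 2756 to 2874 lower than untreated cells.

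With the replicate number as a replicate block, 861 genes were higher and 1723 lower with ruxolitinib, and the differences by MCL were 2118 positive and 1994 negative. Deviations of same-numbered ruxolitinib and TNF-α libraries correlated at -0.0276 to 0.000495 across genes. For combination and MCL libraries the values were 0.00572, 0.0365 and -5.71e-07. These values cannot settle whether same numbers share a culture or batch, because many tested genes have few counts and noisy deviations.

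Over 159 genes examined by name and 12 alternatives, 1856 values kept their side of the threshold. A further 37 values of 8 genes lost the call, and 11 values of 4 genes gained one. A change of direction was counted only where the main fit or the alternative called the gene, and 0 such values reversed. Depth limits genes of few counts, such as SOCS3, RTP4 and, in the combination, RNF223.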
